A study of Mus musculus with 16 samples.

Results

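Of 50655 open chromatin regions found in mouse liver on chromosomes 1 to 19, 4688 (9.25%) lay more than 100 kb from the nearest annotated transcription start site (TSS), and these remote DNase hypersensitive sites (DHS) are described here. A DHS is a stretch of chromatin where DNase I cuts readily. Members were chosen by position alone: the peaks of 4 DHS lists were joined where they overlapped by at least 1 bp, and a region entered when no start site of a protein-coding, lincRNA or processed-transcript gene lay within 100 kb. They were set beside the 29399 promoter-distal regions at 2.5 to 100 kb and the 16568 promoter regions within 2.5 kb of a TSS. The rule limits the distance to start sites, not to genes: 1209 remote DHS (25.8%) lay inside a gene of these 3 types, 1153 in introns and 56 over exons, and the other 3479 were intergenic. It also leaves out most immunoglobulin variable gene segments, since few of them are annotated as one of these types, and this bears on runs of regions described below.

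DNase-seq was done on liver nuclei from male and female mice of C57BL/6J (B6), the laboratory strain behind the reference genome, and CAST/EiJ (CAST), a wild-derived strain of another subspecies. All mice were 8 weeks old, and the amount of DNase I was 32 units throughout. The 16 libraries formed 4 groups of 4, male B6, female B6, male CAST and female CAST. The libraries of a group were pooled into 1 list, so there was no spread between animals and every comparison below is between lists. Intervals are 95% Wilson intervals, or Newcombe intervals for differences, and cover counting error only.

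Far from start sites, DHS are mostly candidate enhancers: short DNA segments bound by transcription factors that can act on a promoter over a long distance when the chromatin between them folds into a loop. Others are insulator sites bound by CTCF, the protein that anchors many such loops, or sequences whose role is unknown. In hepatocytes, factors such as HNF4A, FOXA, C/EBP and HNF1 open enhancers, while growth hormone, acting through STAT5, sets many of the differences between male and female liver.

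The DNA at the summit of 9 remote DHS is printed to give examples for each pattern of sharing: found in all 4 lists, in males only, in females only, in 1 strain only, and farthest from any start site. The 9 were picked from the members named further on and do not show how often words occur. For instance, the second B6-only member, chr8:35541447-35542170, held no word and is not printed. Each line is 300 bases of the mm9 reference, plus strand, centred on the summit, with the nearest gene or, for an intron, the gene that holds it in the name. Capitals mark matches on either strand to short words that liver or general factors are known to bind. The words are spelled out beside their counts further on. The CAST lines also show the reference (B6) letters.

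All 4 lists, Rreb1, chr13:37711853-37712152: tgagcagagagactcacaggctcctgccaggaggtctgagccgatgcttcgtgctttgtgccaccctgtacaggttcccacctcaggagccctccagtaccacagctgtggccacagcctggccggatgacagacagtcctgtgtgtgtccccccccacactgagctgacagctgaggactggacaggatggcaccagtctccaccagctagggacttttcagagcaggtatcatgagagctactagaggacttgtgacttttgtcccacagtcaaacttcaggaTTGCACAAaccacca
All 4 lists, intron of Ptprm, chr17:67230489-67230788: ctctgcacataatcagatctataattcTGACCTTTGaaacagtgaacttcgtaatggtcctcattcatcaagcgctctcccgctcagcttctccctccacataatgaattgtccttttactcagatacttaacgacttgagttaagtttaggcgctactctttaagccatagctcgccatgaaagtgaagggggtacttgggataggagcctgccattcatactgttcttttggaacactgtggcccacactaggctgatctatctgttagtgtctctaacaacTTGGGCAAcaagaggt
Both male lists, G930045G22Rik, chr6:50722693-50722992: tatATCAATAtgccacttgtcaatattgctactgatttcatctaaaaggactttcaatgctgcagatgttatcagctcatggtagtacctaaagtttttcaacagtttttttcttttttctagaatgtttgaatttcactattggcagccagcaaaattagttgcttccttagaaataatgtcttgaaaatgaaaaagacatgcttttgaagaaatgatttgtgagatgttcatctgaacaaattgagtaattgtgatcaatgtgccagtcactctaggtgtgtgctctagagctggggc
Both male lists, Zfp703, chr8:27704440-27704739: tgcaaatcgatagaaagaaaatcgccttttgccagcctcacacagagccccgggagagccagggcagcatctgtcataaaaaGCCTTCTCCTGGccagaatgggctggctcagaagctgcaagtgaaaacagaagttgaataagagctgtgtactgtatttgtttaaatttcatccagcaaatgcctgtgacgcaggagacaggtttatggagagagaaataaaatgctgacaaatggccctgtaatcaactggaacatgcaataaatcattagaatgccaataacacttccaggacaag
Both female lists, Itga8, chr2:11933094-11933393: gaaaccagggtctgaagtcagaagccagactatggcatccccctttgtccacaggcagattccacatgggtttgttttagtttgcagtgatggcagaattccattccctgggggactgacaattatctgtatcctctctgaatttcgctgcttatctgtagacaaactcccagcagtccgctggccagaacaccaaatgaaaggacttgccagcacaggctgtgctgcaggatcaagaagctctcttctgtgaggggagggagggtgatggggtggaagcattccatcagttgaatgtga
Both B6 lists, Krr1, chr10:111257010-111257309: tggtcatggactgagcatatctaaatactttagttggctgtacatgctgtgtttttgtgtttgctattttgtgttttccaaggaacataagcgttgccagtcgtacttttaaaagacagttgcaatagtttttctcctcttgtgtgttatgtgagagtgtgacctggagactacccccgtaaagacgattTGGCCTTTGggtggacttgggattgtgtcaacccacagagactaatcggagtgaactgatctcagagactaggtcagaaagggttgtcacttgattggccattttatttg
Both B6 lists, Armc1, chr3:18944475-18944774: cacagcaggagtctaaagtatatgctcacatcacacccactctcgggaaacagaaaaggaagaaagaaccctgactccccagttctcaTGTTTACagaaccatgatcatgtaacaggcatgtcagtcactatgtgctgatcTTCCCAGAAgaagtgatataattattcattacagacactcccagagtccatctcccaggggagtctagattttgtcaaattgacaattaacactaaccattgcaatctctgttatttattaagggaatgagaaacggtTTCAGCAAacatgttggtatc
Both CAST lists, Gm10650, chr3:127923919-127924218: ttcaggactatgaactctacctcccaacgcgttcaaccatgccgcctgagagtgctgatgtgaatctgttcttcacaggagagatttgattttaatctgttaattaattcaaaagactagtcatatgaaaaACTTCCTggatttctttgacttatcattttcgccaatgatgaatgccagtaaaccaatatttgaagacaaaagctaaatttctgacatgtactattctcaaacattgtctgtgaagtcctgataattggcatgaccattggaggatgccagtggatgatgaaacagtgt
Farthest, male B6 list, Cdh20, chr1:104414466-104414765: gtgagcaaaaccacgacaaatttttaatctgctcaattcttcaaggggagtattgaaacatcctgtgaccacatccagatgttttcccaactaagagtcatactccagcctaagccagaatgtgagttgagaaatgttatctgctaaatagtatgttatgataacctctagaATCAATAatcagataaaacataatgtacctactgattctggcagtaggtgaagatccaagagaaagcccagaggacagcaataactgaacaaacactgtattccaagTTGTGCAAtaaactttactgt

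The capitals mark a C/EBP word in the Rreb1 window, HNF4A and C/EBP words in the Ptprm window, a ONECUT word in the window near G930045G22Rik and a CTCF word in the Zfp703 window. The Itga8 window held none of the 10 words searched. Both B6-only windows held words of liver factors, HNF4A beside Krr1 and FOXA, C/EBP and STAT5 near Armc1. The CAST-only window held an ETS word, and the farthest region held C/EBP and ONECUT words. A match to a short word is a description of the letters and not a measured binding site.

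The remote genome was sparsely open. Positions beyond 100 kb from a TSS made up 790.8 Mb, 33.0% of chromosomes 1 to 19, and held 5.93 regions per Mb. Other promoter-distal sequence held 20.7 regions per Mb and promoters held 90.5. The decline ran on inside the remote class, from 9.07 regions per Mb at 100 to 200 kb to 5.12 at 200 to 500 kb and 2.31 beyond 500 kb. The nearest member lay 100004 bp from a start site, the median 177 kb and the farthest 2250 kb, while 2007 members lay beyond 200 kb, 435 beyond 500 kb and 72 beyond 1 Mb (1000 kb). Chromosome 12 had the highest share of remote regions, 17.6% (363 members), and chromosome 11 the lowest, 2.79% (99 members).

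Remote DHS also stood farther from the next region. The rule itself keeps every promoter region away from a member, so these gaps are a description and in part follow from it. The median gap to the next region of any class was 11 kb, against 5.20 kb for other promoter-distal regions. A neighbour lay within 10 kb for 48.3% of remote DHS and for 70.4% of the other distal regions. No neighbour lay within 100 kb for 14.6% and 1.58%, respectively.

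**Figure D1:**
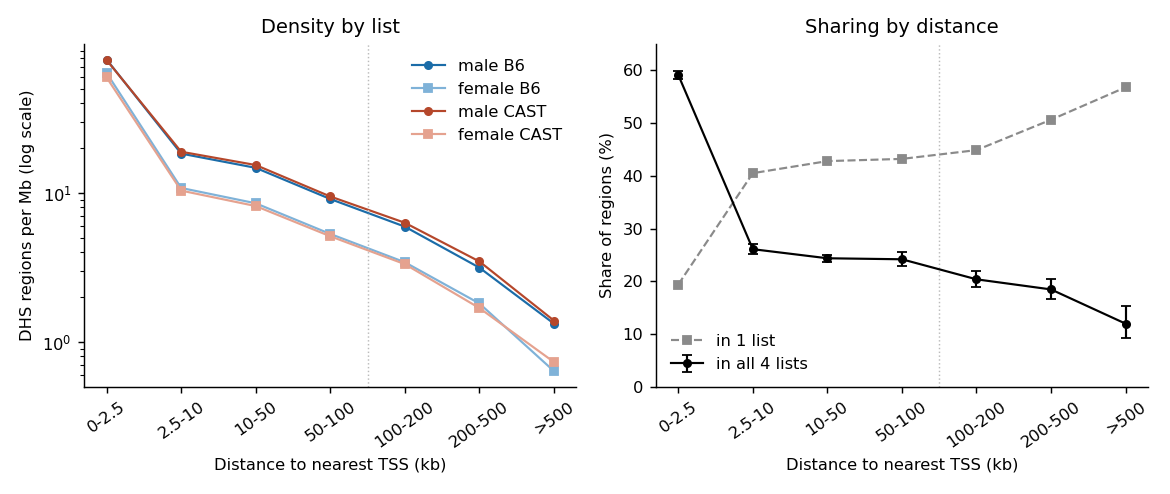
Left, DHS regions per Mb (log scale) in each of the 4 lists by distance to the nearest TSS in kb; right, the share of regions found in all 4 lists (black, bars are Wilson 95% intervals) and in 1 list (grey). The dotted line marks 100 kb. Density fell with distance in every list, and the share in all 4 lists fell from 59.1% within 2.5 kb to 12% beyond 500 kb.

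Remote DHS were shared among the lists less often than nearer distal regions. A peak was present in all 4 lists for 888 members (18.9%, 17.8 to 20.1), against 24.9% of other promoter-distal regions, 59.1% of promoter regions and 35.5% of all regions. The difference from the other distal regions was -5.94 percentage points. A further 582 members were found in 3 lists, 972 in 2 and 2246 in a single list (47.9%, against 42.1% of other distal and 35.2% of all regions). Single-list members came mostly from the male lists, 992 from male CAST and 822 from male B6, with 232 from female CAST and 200 from female B6. The all-4 share was 20.4% at 100 to 200 kb, 18.4% at 200 to 500 kb and 12% beyond 500 kb. Just inside the limit, at 100 to 105 kb, 17.5% of 234 members (41) were in all 4 lists, and just outside it, at 95 to 100 kb, 23.8% of 256 regions (61). These 2 bands are small, their shares carry no interval, and a step at the limit was not tested. All 4 lists were reached by 18.7% of members in genes and 19% of intergenic ones.

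The base composition moved along with distance, to a median GC of 39.3% beyond 500 kb. The median GC content of the 300 bp summit windows was 43.7% in remote DHS, 47.3% in other distal regions and 59.7% in promoters. CpG dinucleotides were present at 0.181, 0.216 and 0.673 of the number expected from the base content. Among remote DHS, GC rose from a median of 42.7% in members of a single list to 45.3% in members of all 4 lists, and the median width rose from 330 to 861 bp. The all-4 difference from other distal regions was -6.59 points among regions with GC below the members' median of 43.7% and -2.95 points among those at or above it. GC is split again within classes of peak strength further on.

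Male and female lists differed in length, and this bears on every pattern by sex: on chromosomes 1 to 19 the male lists held 38107 peaks in B6 and 38971 in CAST, and the female lists 25782 and 24467. The genome-wide background recovered from the scores, which follows read depth, was 15.4 reads at a position for male and 13.9 for female B6, and 14.3 for male and 7.94 for female CAST. Both male lists and neither female list held 470 remote DHS (10.03%, 9.20 to 10.9), against 10.7% of other distal regions and 9.37% of all regions. Both female lists and neither male list held 3 (0.0640%), against 0.0646% of other distal regions and 0.0533% of all regions. When each list was cut to its 24888 highest-scoring peaks, the counts became 85 male-only and 31 female-only members, 2.94% and 1.07%, against 2.87% and 1.02% of other distal regions. The share of male-only and of female-only regions was close to that of nearer distal regions in these 2 settings. At the stricter threshold of −log10 q 15.7 there were 352 male-only members (19.1%, against 21.7% of other distal regions) and 1 female-only member (0.0542%, against none of the other distal regions). Why male-only members outnumbered female-only ones was not tested.

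By strain, both B6 lists and neither CAST list held 212 members (4.52%, 3.96 to 5.16), against 3.85% of other distal regions and 3.3% of all regions. Both CAST lists and neither B6 list held 260 (5.55%, 4.93 to 6.24), against 4.54% and 3.64%. With lists of equal size these were 246 and 253 members, 8.51% against 6.89% of other distal regions for B6 and 8.75% against 7.83% for CAST. At the stricter threshold they were 51 and 67 members, 2.76% against 1.95% for B6 and 3.63% against 3.63% for CAST, so that the CAST-only share no longer stood above that of other distal regions. Members present in opposite sexes of the strains were rare. Male B6 and female CAST alone shared 14 members (0.299%, against 0.282% of all regions), and female B6 and male CAST alone shared 13 (0.277%, against 0.519%).

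**Figure D2:**
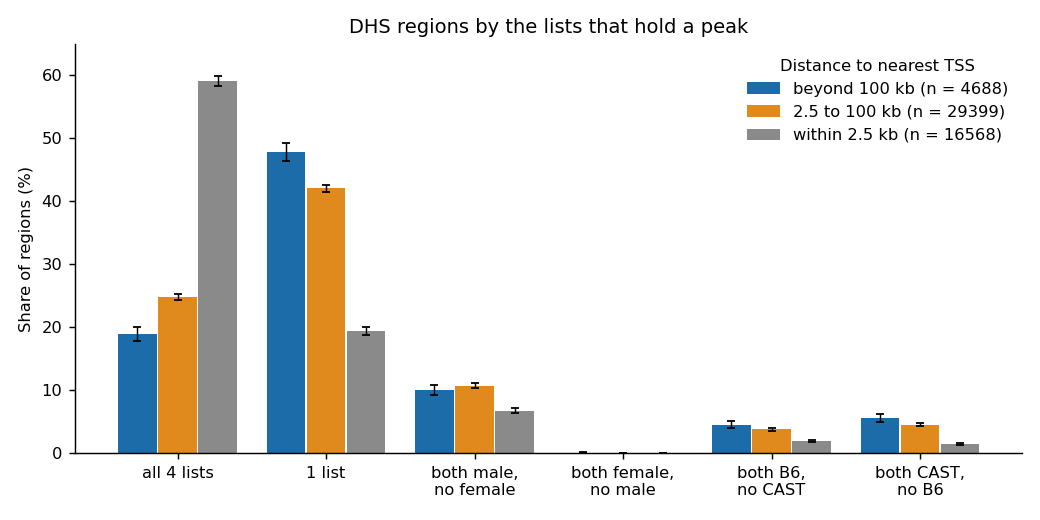
Share of regions (%) by the lists that hold a peak, for 4688 remote DHS (blue), 29399 other promoter-distal regions (orange) and 16568 promoter regions (grey); bars are shares and lines Wilson 95% intervals. Remote DHS had the lowest share in all 4 lists (18.9%) and the highest share in 1 list (47.9%) of the 3 classes, and the female-only share was under 0.1% in each class.

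The lower sharing was seen in both directions between the sexes and between the strains. Of 2972 remote DHS in the male B6 list, 49.0% were also in the female B6 list, against 51.6% of other distal regions (difference -2.58 points, -4.50 to -0.66). In the reverse direction 86.3% of the 1688 female B6 members were also in the male list, against 88.6% (-2.36 points, -4.17 to -0.70). In CAST the differences were larger, with 43.1% of 3189 male members also in the female list against 49.0% (-5.88 points, -7.72 to -4.03), and 83.8% of 1639 female members also in the male list against 91.1% (-7.23 points, -9.16 to -5.44).

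Between strains, 64.2% of male B6 members were in the male CAST list, against 69.2% of other distal regions (-4.99 points, -6.84 to -3.17), and 59.8% of male CAST members were in the male B6 list, against 66.6% (-6.78 points). Female members gave 54.7% against 63.1% from B6 to CAST (-8.41 points) and 56.3% against 65.7% from CAST to B6 (-9.43 points). Over members in either male list, 44.9% were in both strains, and over members in either female list 38.4%.

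The lower sharing was also seen among peaks of like strength. Members were of ordinary strength for distal DHS. Their median −log10 q, the strength MACS2 gives a peak, was 12.6 and 8.40 in male and female B6, and 13.1 and 9.12 in male and female CAST, against 12.5, 9.05, 14.1 and 10.1 for other distal regions. In percentiles of the list, which can be set side by side, the members' medians were 41.0, 37.4, 39.8 and 38.3. Each list was then cut into 4 strength classes with equal numbers of peaks. Between the sexes, remote DHS were shared less often in 14 of 16 class-by-direction comparisons, with the interval below 0 in 10 and above 0 in none, and the differences ran from -15.0 to 1.65 points. Some of these differences rest on few regions, with shares near 100%. In the strongest class of female B6, 254 of 256 members and 1847 of 1848 other distal regions were also in male B6. The interval there lay below 0. Between the strains, sharing was lower in 16 of 16, with the interval below 0 in 12, and the differences ran from -11.8 to -1.26 points. When each strength class was also split by GC, sharing was lower in 24 of 32 comparisons between sexes and in 29 of 32 between strains. The differences then ran from -19.8 to 3.88 points between sexes and from -15.5 to 1.10 points between strains. These comparisons reuse the same regions in both directions and are not independent.

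**Figure D3:**
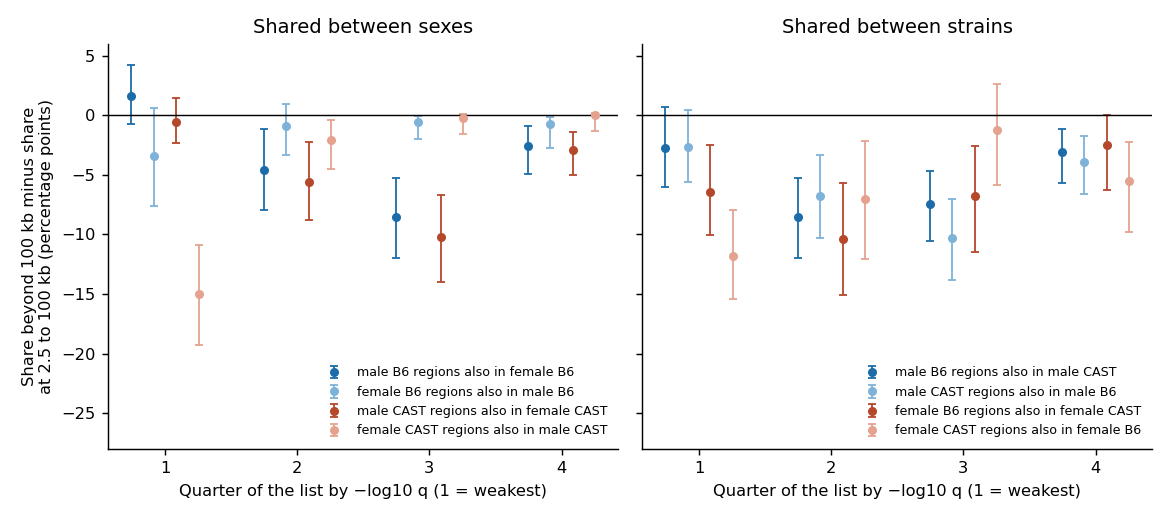
Share of remote DHS minus share of other promoter-distal DHS also found in the list of the other sex (left) or strain (right), in percentage points, in 4 equal strength classes of each list by −log10 q (1 is the weakest); bars are Newcombe 95% intervals. Most points lie below 0, in 14 of 16 comparisons between sexes and 16 of 16 between strains.

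Members in more lists were stronger in each. The median percentile in the male B6 list was 20.03 for members of that list alone, 33.1 in members of 2 lists, 44.7 of 3 and 72.1 of all 4. In the male CAST list it went from 16.3 through 34.4 and 42.0 to 75.6. Male-only members were weak to moderate, with median percentiles of 28.5 in male B6 and 29.8 in male CAST. CAST-only members reached a median of 49.7 in the male CAST list and B6-only members 45.6 in the male B6 list.

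The members with the highest mean percentile in all 4 lists are given by their −log10 q, in the order male B6, female B6, male CAST and female CAST. The 2 strongest lay side by side at chr17:39980161-39983699 (1922, 943, 3614 and 1241) and chr17:39985000-39985666 (909, 542, 855 and 375), 360 kb from Pgk2, the second over the annotated pseudogene AY036118. As background, this stretch of mm9 holds a copy of the ribosomal RNA precursor, whose gene is present in many copies in the cell. The values there differ from those of the other members: summit pileups were 3418 to 15282 reads, yet the fold enrichment over the local background was 2.14 to 3.53, and GC was 64.7% and 70.7%.

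Copied regions, described further on, were passed over here. The next member was chr13:37711575-37712638, 158 kb from Rreb1, which encodes a zinc finger transcription factor downstream of Ras signalling. Its −log10 q was 744, 303, 716 and 303, its fold enrichment 16.6, 12.2, 16.3 and 16.4, and its summit is the first sequence printed above. It stood above the 99.8th percentile in every list. The region at chr18:3005442-3006483, 117 kb from the vomeronasal receptor gene Vmn1r238, gave 503, 399, 827 and 379, and no start site precedes it on the chromosome. The region at chr6:140228378-140230095, 143 kb from Plekha5, gave 777, 274, 592 and 187, at percentiles of 99.9, 99.8, 99.8 and 99.4. The scores were made separately in each list and follow its depth, so they rank a member within its list and are not compared across lists.

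The next 3 members lay near genes with known regulatory roles. The region at chr12:15660061-15660816, 162.8 kb from Trib2, which encodes a pseudokinase that promotes degradation of C/EBP alpha, gave 614, 243, 570 and 219. The region at chr17:67230227-67231178, in an intron of the receptor tyrosine phosphatase gene Ptprm and 286 kb from the start of 9130404H23Rik, gave 570, 212, 666 and 254, and its window is the second printed above. The region at chr17:46022414-46023777 lay between Gm16862 at 129 kb and Vegfa, the vascular growth factor gene, at 135 kb, and gave 425, 229, 625 and 230. All 3 stood above the 99th percentile in each list.

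The region at chr16:24199363-24200383 gave 472, 180, 559 and 204 and lay in the interval between Bcl6 (210 kb) and Lpp (193 kb). Bcl6 encodes a transcriptional repressor that is more abundant in male than in female liver and acts against STAT5 targets. The tenth, chr12:111392411-111393335, lay 123 kb from Dio3os, which overlaps the gene of the deiodinase that inactivates thyroid hormone, and gave 423, 171, 507 and 189. Its window held an HNF4A word.

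Male-only members were led by chr6:50722396-50723234, between Npvf (118 kb), a neuropeptide gene, and G930045G22Rik (104.8 kb). Its −log10 q was 184 in male B6 and 91.1 in male CAST, and no peak was called in either female list. The next was chr8:27704191-27705065, 383 kb from Zfp703, which encodes a zinc finger corepressor, with 59.0 and 133. The third, chr13:20752619-20753577, gave 58.2 and 100.9 and lay 132 kb from Aoah, whose enzyme inactivates bacterial lipopolysaccharide. The other two lay 170 kb from the Hedgehog effector gene Gli2 (chr1:120708605-120709406, 76.6 and 50.2) and 858 kb from the netrin receptor gene Unc5d (chr8:31188118-31188963, 67.0 and 45.8). Of these 5 summit windows, 3 held the ONECUT word, but the 5 were picked by strength and do not show how often it occurs.

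The 3 female-only members were weak. They were chr2:11933149-11933450, 121 kb from the integrin gene Itga8 (6.86 in female B6 and 3.91 in female CAST), chr17:63469130-63469387 in an intron of Fbxl17 (2.64 and 4.51) and chr18:42956257-42956884 in an intron of Ppp2r2b (1.89 and 11.7). Their summits held between 25 and 42 reads, and each stood at or below percentile 11.2 of at least 1 list.

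B6-only members were led by chr10:111256806-111257630, 152 kb from Krr1, a ribosome biogenesis gene, with −log10 q of 165 in male and 49.5 in female B6. The second, chr8:35541447-35542170, gave 93.3 and 47.6 and lay between Gm4889 (150.5 kb) and Dusp4 (328 kb). The third, chr3:18944262-18945145, gave 89.95 and 47.8 and lay between Cyp7b1 (801 kb), which encodes a hydroxylase of oxysterols and is male-biased in mouse liver, and Armc1 (118 kb). The others lay 107 kb from Olig3 (chr10:19183387-19184671, 137 and 38.3) and 122 kb from Cdca2 (chr14:68192705-68193096, 108 and 37.7).

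CAST-only members were led by 2 short regions that resemble mitochondrial DNA. The first, chr6:79767948-79768347, had −log10 q of 1203 in male and 530 in female CAST, and it aligned to the mitochondrial genome over 401 positions, gaps included, at 89.0% identity. The second, chr18:3638867-3639142, 131 kb from Bambi, gave 175 and 83.3 and matched at 88.9% over 271 bp. Both fell just below the identity of 90% used to set copied regions aside. In ranking the CAST-only members, 4 with a copy in mm9 or the mitochondrial genome had been passed over, of 9 such members. What part mitochondrial reads had in the 2 short regions was not tested.

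The next 3 had no such match. The region at chr3:127923878-127924827 gave 162 and 58.8 and lay 182 kb from Gm10650. The region at chr4:7966239-7967476, 199 kb from the carbonic anhydrase-related gene Car8, gave 266 and 51.8. The last, chr8:122832558-122833941, lay in an intron of Gm20388 and 179 kb from Gse1, and gave 146 and 50.0. In this annotation Gm20388 is a single gene model at chr8:122434741-126869622.

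The strongest single-list members reached −log10 q of 104.9 in male B6 (chr2:137379277-137380067) and 111 in male CAST (chr7:47320427-47321257), but 16.3 in female B6 (chr19:19360519-19360767, 175 kb from Rorb) and 9.12 in female CAST (chr13:79936547-79936848, 1086 kb from Arrdc3). The second of the female B6 list was chr15:11116647-11117064 in an intron of Adamts12 (12.1), that of male CAST chr3:77741075-77741631 (109.6) and that of female CAST chr12:52297123-52297404 (7.89). The second male B6 member, chr19:55648613-55648889 in an intron of Vti1a, had a summit of 5793 reads but a fold enrichment of 1.33. The 3 members farthest from any start site lay in the male B6 list only, between Cntnap5b and Cdh20 on chromosome 1. The farthest, chr1:104414465-104414827, had −log10 q of 8.30, and the other two 22.3 (chr1:104630591-104631144) and 15.9 (chr1:104631912-104632311). Next came chr1:103684933-103685299, in male CAST only (2.34), and chr18:28436436-28436830, in male B6 only (7.37).

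A set of 40 remote DHS (37 with a second place in mm9 and 4 matching the mitochondrial genome, 1 of them both) had a match at 90% identity over 80% of their length, and they held some of the highest scores. The region at chr3:5860391-5860821, 284 kb from Pxmp3, was in all 4 lists (837, 394, 920 and 271) and matched chromosome 18 at 93.7% identity. The region at chr12:3109869-3110114 matched 22 places on chromosome 9 and was in 3 lists (796 and 811 in male and female B6, 937 in male CAST), with no peak in female CAST. The 2 highest were CAST-only and matched the mitochondrial genome: chr10:95540160-95540526, with 5672 in male and 2728 in female CAST (97.8% identity), and chr4:79649110-79651088, with 3129 and 1594 (93.3%). CAST-only region chr12:98299664-98300003 (1022 in male and 576 in female CAST) matched the mitochondrial genome at 99.7%. Leaving all 40 out moved neither the all-4 share, the shares between sexes and strains, the CTCF word share nor the share inside genes by more than its counting interval, and 9 of the 260 CAST-only members were among the 40.

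Remote DHS were also counted by interval between consecutive start sites. Of 1208 such intervals with a member, 411 held 1 and 320 held 5 or more, and those 320 contained 2972 members (63.4%). The rule admits only long intervals, and longer ones have more room, so these counts in part follow from it. Interval length was not matched, and whether members cluster beyond this was not tested. In all, 1538 genes were the nearest to a member, 626 of them to 1 only, and 393 genes held a member inside. Among the richest intervals were Pvt1 to Gsdmc on chromosome 15, with 36 members, and Maf to Dynlrb2 on chromosome 8, with 30. In these, 13 and 8 members were in all 4 lists. The interval from Id2 to Rnf144a on chromosome 12 held 28 members, 13 of them in all 4 lists and 1 male-only. Pvt1 is a long noncoding RNA gene beside Myc, Maf encodes a bZIP transcription factor and Id2 an inhibitor of helix-loop-helix factors.

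The longest interval with at least 5 members, Cntnap5b to Cdh20 (5.0 Mb), held 18 members, of which the male lists had 14 (B6) and 11 (CAST), the female lists 3 and 2, and 1 was in all 4. By contrast, Ets1, the founding ETS factor gene, was nearest to 21 members with 7 in all 4 lists, the activin subunit gene Inhba to 17 with 6, and Olfr161 to 18 with 10. Gm7112 was nearest to the most members, 39, with none in all 4 lists. Nor were any of the members nearest to 9130204L05Rik (22) and Gm12887 (17). Inside genes, Gm20388 held 28 members, Rad51l1 24, Pvt1 21, Rora, the gene of a nuclear receptor, 13, and Lpp 13.

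In all, 3 lists of genes were examined for those that flank a remote DHS on either side, which 8.18% of all 24930 genes with a start site did (2039 genes). Of 24 hepatocyte factor genes, 6 did (25%), namely Foxa2, Nr5a2, Prox1, Tcf7l2, Nfia and Nfib. Of 14 regulators of sex bias and growth hormone action, 5 did (35.7%), Ghr, Bcl6, Trim24, Tox and Zbtb20. Of 36 developmental regulators known to border gene deserts, 21 did (58.3%). This list was picked for bordering long intervals without start sites, the only places where a member can lie. Its high share therefore follows in part from the choice of genes and is not a result about the members. No list was compared at matched length of the neighbouring intervals.

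The counts that follow are of members with the gene as the next start site on either side, whether or not another gene was closer. Bcl6 flanked 17 members, with 14 in each male list, 7 in the female B6 list and 8 in the female CAST list. Of these 17, 7 were in all 4 lists and 3 were male-only, and none were in 1 strain only in both sexes. The nuclear factor I gene Nfib flanked 10 (4 in all 4 lists) and Nr5a2, which encodes the LRH-1 receptor of bile acid and cholesterol metabolism, 8 (1 in all 4 lists, 2 male-only). Ghr, the growth hormone receptor gene, flanked 1 member, found in 3 lists. Among the developmental genes, Tle4, a Groucho corepressor gene, had 9 members with 5 in all 4 lists, Sall3 9 with 3, and Sox6 13 with none in all 4 lists. Nr2f2, the COUP-TFII gene, had 12, of which 5 were male-only.

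Neighbouring remote DHS in some places all came from 1 strain. Runs of at least 8 consecutive members with peaks in 1 strain only, with gaps of at most 500 kb, were sought after the patterns had been seen. There were 8, with 119 members (2.54%), 7 of them CAST runs and 1 a B6 run. The CAST runs held 102 of the 1484 members with CAST peaks only, and the B6 run 17 of the 1234 with B6 peaks only. Among members in both lists of a strain, 35 of 260 CAST-only and 1 of 212 B6-only lay in a run. Most run members were weak: across the runs the median male fold enrichment was 2.25 to 4.52, against medians of 3.30 in male B6 and 3.41 in male CAST over all members and of 2.56 in each over members of 1 list.

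The longest run by members was CAST, chr12:115178047-116066869, with 34 members, 32 in male and 18 in female CAST, across the immunoglobulin heavy chain variable segments. It spanned 44 annotated genes, of which 1 was of a type counted as a start site here, so these regions were remote by the rule although the span held many gene segments. The next, chr3:91004439-91273098, held 22 between 9130204L05Rik and Pglyrp3, a peptidoglycan recognition gene, all in male and 7 in female CAST. The B6 run, chr4:121648050-121817210, held 17 between Gm12887 and 9530002B09Rik, 5 in male and 13 in female B6, with 1 in both. A CAST run of 9, chr4:122225704-122257194, lay in the same interval. A run between Got2 and 1700047G07Rik, chr8:98575664-98887113, had 11 members and the highest median male fold enrichment of the 8, at 4.52. The others were chr6:59663037-59868122 with 9, chr12:114975699-115164445 with 8 in the heavy chain region, and chr6:67641315-68325138 with 9 across part of the kappa light chain variable region. In 7 runs every region of the span was a member, and in the last 9 of 11 were. Whether copy number or mapping differs between the strains in these spans was not tested, and leaving the runs out changed CAST-only members from 260 to 225.

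**Figure D4:**
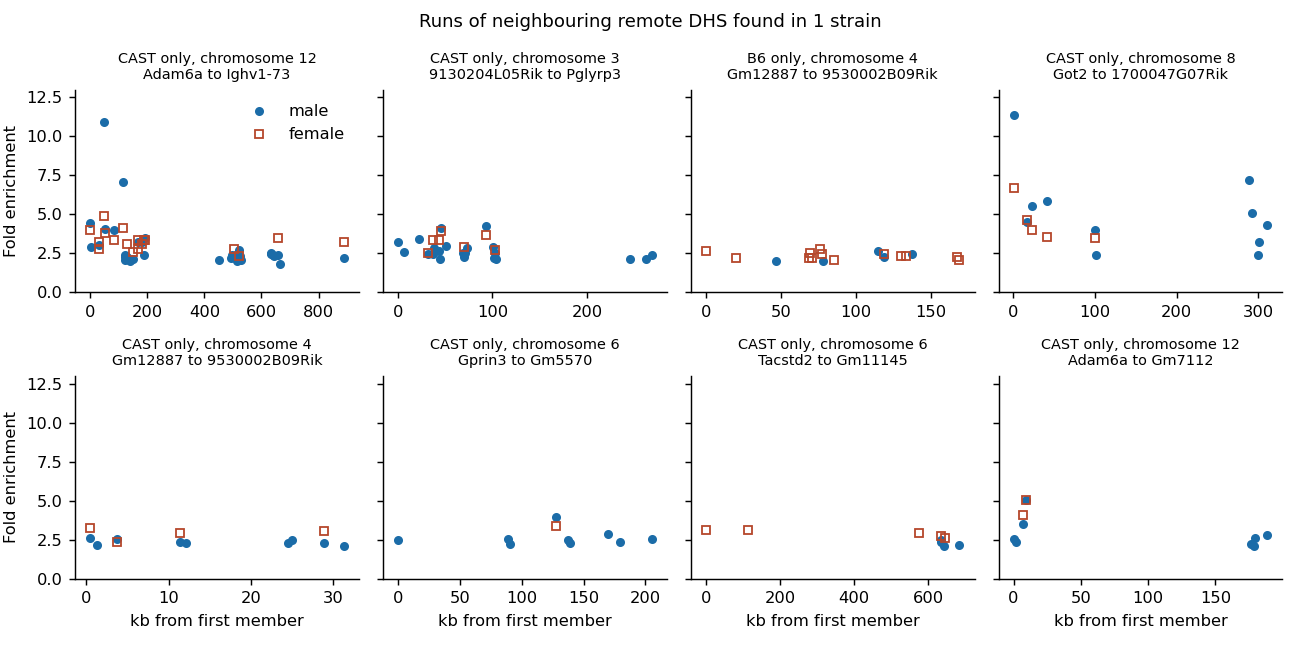
Fold enrichment at the summit (vertical) of each member in 8 runs of neighbouring remote DHS found in 1 strain only, by distance in kb from the first member; filled circles are the male and open squares the female list of that strain. Most points lie between 2 and 4, and the runs on chromosomes 8 and 12 hold the few members above 7.

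The words of liver factors were more common at the summits of remote DHS than 2 kb to the side, in 300 bp windows on either strand. Each word was searched separately, so that a base may count towards more than 1. The C/EBP word TTGCNNAA was present in 24.5% of remote summits and 14.1% of side windows, the HNF4A word CAAAGNNCA in 15.4% and 7.87%, the FOXA word TGTTTAC in 9.02% and 4.54%, and the ONECUT word TATTGAT in 9.36% and 4.74%. The HNF1 word GTTAATNATT was present in 2.35% of summits (110) and 0.213% of side windows (10). These words were found in 17.2%, 12.8%, 6.55%, 5.09% and 1.42% of the summit windows of all regions, in the same order. At least 1 of the 5 words was present in 47.8% of remote DHS (46.4 to 49.2), 41.3% of other distal regions and 22.2% of promoters.

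The words set remote DHS apart from nearer distal regions to different degrees. C/EBP (24.5% against 19.6%), ONECUT (9.36% against 6.15%), FOXA (9.02% against 7.71%), HNF1 (2.35% against 1.65%) and STAT5 (12.8% against 11.4%) were more common in remote DHS, with intervals that did not overlap, while HNF4A (15.4% against 15.1%) had overlapping intervals. C/EBP (14.1% against 11.7%), ONECUT (4.74% against 3.28%) and STAT5 (10.3% against 9.07%) were also more common in the side windows of remote DHS than of other distal regions. For STAT5 the ratio of summit to side share was 1.24 in remote DHS and 1.26 in other distal regions. The word of CTCF, CCANNAGNNGGC, was present in 1.73% of remote summits (1.39 to 2.14), 3.26% of other distal summits and 3.02% of the summits of all regions. It was less common in the side windows of remote DHS too, at 1.02% against 2.57%, and the ratio of summit to side share was 1.69 in remote DHS and 1.27 in other distal regions. Whether base composition gives these differences was not tested.

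The words of STAT5, AP-1 and ETS, which many tissues use, differed less between summits and side windows. The STAT5 word TTCNNNGAA was present in 12.8% of summits and 10.3% of side windows (10.2% of all regions), the AP-1 word TGANTCA in 12.1% and 9.66% (9.39%), and the ETS word AGGAAGT in 9.88% and 7.87% (8.87%). The NF1 word TTGGCNNNNNGCCA was present in 0.683% and 0.192% (0.721%).

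Some words of liver factors were more common in members of more lists. The HNF4A word rose from 13.4% of members in 1 list to 18.9% of those in all 4, the C/EBP word from 22% to 27.5% and the HNF1 word from 1.51% to 3.72%, with intervals that did not overlap. The same words rose in other distal regions, HNF4A from 12.5% to 18.1%, C/EBP from 17.2% to 23.2% and HNF1 from 0.977% to 2.54%, so that the trend was not particular to remote DHS. The FOXA word was present in 7.57%, 9.05%, 12.5% and 10.4% of members in 1, 2, 3 and 4 lists, and the ONECUT word in 9.04%, 11.4%, 10.997% and 6.87%. The CTCF word went from 2.05% to 1.13%, with overlapping intervals, and from 4.03% to 2.00% in other distal regions. Male-only members held the ONECUT word in 13% (10.2 to 16.3), against 6.87% (5.38 to 8.73) of members in all 4 lists. Male-only members are in 2 lists, however, and the share among all members in 2 lists was 11.4% (9.57 to 13.6), with overlapping intervals. The intervals of B6-only members, 9.43% (6.19 to 14.1), and CAST-only members, 9.62% (6.60 to 13.8), also overlapped that of male-only members. A higher ONECUT share particular to male-only members was therefore not shown, and male-only regions nearer to start sites were not compared. The STAT5 word was present in 12.8% of male-only members and 14.2% of those in all 4 lists. B6-only members held the FOXA word in 13.7% (9.70 to 18.96) and CAST-only members in 8.08% (5.34 to 12.03), with overlapping intervals. Words were counted in the mm9 (B6) letters for both, so words that CAST variants make or break were not seen.

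**Figure D5:**
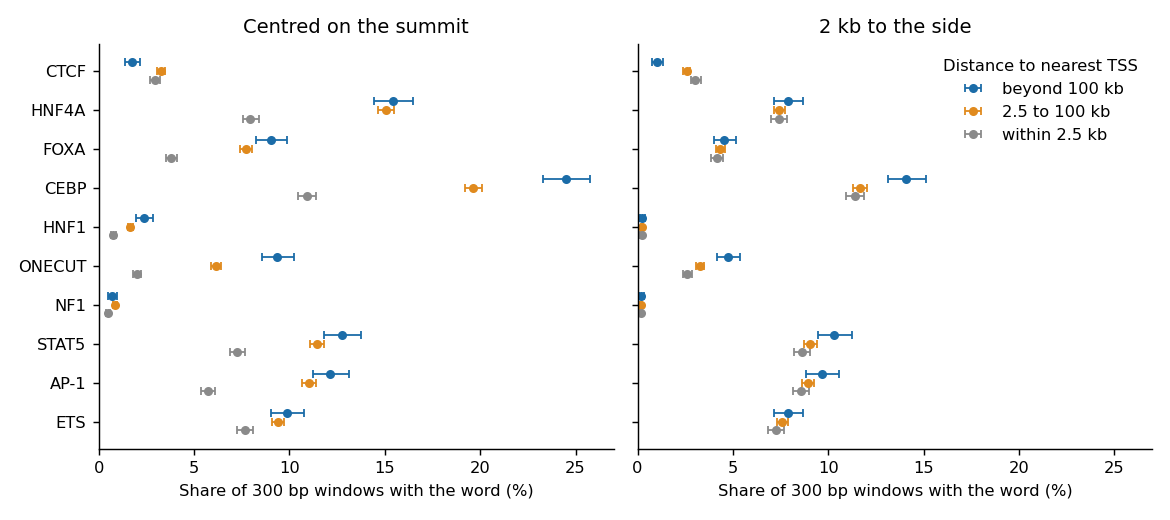
Share of 300 bp windows (%) with each of 10 factor words, centred on the summit (left) and 2 kb to the side (right), in remote DHS (blue), other promoter-distal regions (orange) and promoters (grey); lines are Wilson 95% intervals. At summits, C/EBP, HNF4A, FOXA, HNF1 and ONECUT words stand above the side windows in both distal classes, and the CTCF word is less common in remote DHS than in other distal regions both at the summit (1.73% against 3.26%) and to the side (1.02% against 2.57%).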

How the data were processed

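The authors merged the 4 libraries of a sex and strain, aligned reads with Bowtie2, keeping unique matches (B6 against mm9, CAST against mm9 carrying CAST variants), called peaks with MACS2, removed blacklisted regions and peaks of duplicated reads, and converted CAST coordinates to mm9. Tool and build names are also in the submitters' processing notes. Each deposited list gives, per peak, a score, the fold enrichment (a ratio of summit pileup to background), the −log10 p-value and −log10 q-value, and the summit offset. The deposited score is 10 times the −log10 q, cut to a whole number, and was not used separately. Scores were made separately in each list and were compared within a list or as percentiles. Depth is not stated in the lists, and the background and summit pileups were recovered from fold and p-value (99.9% of pileups within 0.02 of a whole number).

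Peaks on chromosomes 1 to 19 were joined at 1 bp overlap, and distances were taken to 72296 start sites of 25087 genes in GENCODE for mm9. Sequences come from the mm9 reference. Tools were bedtools 2.31.1, minimap2 2.31, blastn 2.17.0 and Python 3.11.15. Joining, distances and intervals were tested on simulated data. Members named were the 10 in all 4 lists with the highest mean percentile, the 5 with the highest lower percentile of each sex-only or strain-only pattern, the 2 strongest of each single list, the 5 farthest from a start site and the 5 strongest with a copy elsewhere. Copied regions were skipped in the other sets. The members, gene lists and words were chosen with earlier results of these data known. No replicate test was possible with 1 pooled list per group. Alternatives were distance limits of 50 and 200 kb, other start site sets, a stricter threshold, lists of equal size, 50% overlap and leaving out copied regions, and, chosen after seeing the data, leaving out strain runs and splitting by GC. A planned count of repeat bases could not be made because the genome file marks none. Some results are not reported here.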

Additional observations from a re-analysis of the deposited data

Results flagged for a closer look

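In some members the sexes of the 2 strains went opposite ways. A peak was called in male B6 and female CAST and in no other list for 14 members (0.299%, against 0.282% of all regions), and in female B6 and male CAST and in no other list for 13 (0.277%, against 0.519%). Neither share stood clearly above that of all regions. With 1 pooled list per group, the difference between the strains could not be tested.

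The X chromosome lies outside the autosomal rule. It held 65 regions more than 100 kb from a start site, 8.45% of its 769 regions, against 9.25% on chromosomes 1 to 19. Of the 65, the male lists held 43 (B6) and 35 (CAST), and the female lists 20 and 22. They are named because they are more than the 3 counts that a count of 0 would allow.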

How the results depend on the processing

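Each share rests on 1 pooled list per group, which means that leaving out single replicates was impossible, and intervals cover counting error only. No paired analysis was possible because the libraries of each group were pooled before peaks were called. Of 95 values recomputed under the alternatives, 42 moved and none changed sign, where a share or difference was taken to move when it left its counting interval and a count when it changed by more than 1.5 times. Of the 42, 9 were counts.

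The number of members was 9037 at 50 kb, 2007 at 200 kb, 1846 at the stricter threshold and 2890 with lists of equal size. The share in all 4 lists was 21.5% at 50 kb, 17% at 200 kb, 27.4% with lists of equal size and 15.4% at 50% overlap. The share of male B6 members also in female B6 was 47.1% at 200 kb, 37.8% at the stricter threshold, 71.5% with equal lists and 44.0% at 50% overlap. For male CAST members in female CAST it was 45.8%, 39.5%, 36.9%, 70.6% and 37.9% for 50 kb, 200 kb, stricter, equal and 50% overlap. Male members in both strains were 47.1%, 41.7%, 49.0%, 49.2% and 38.4% in that order, and female members in both strains 42.4% at 50 kb, 36.1% at 200 kb, 52.3% at the stricter threshold and 34.6% at 50% overlap. The all-4 difference from other distal regions was -3.55 points at 50 kb, -7.46 at 200 kb, -3.13 at the stricter threshold, -8.27 with equal lists, -4.07 at 50% overlap and -2.95 in the GC-rich part. The CTCF word share was 1.08% at the stricter threshold and 1.38% with equal lists. The share inside genes was 35.1% at 50 kb, 15.7% at 200 kb and 28.1% with protein-coding start sites only. Male-only members were 85 with equal lists, female-only 1 at the stricter threshold and 31 with equal lists, and B6-only and CAST-only 51 and 67 at the stricter threshold. The cause of each move was not tested, except that a higher threshold or shorter list leaves fewer regions.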
